A study of Arabidopsis thaliana with 9 samples.

Results

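The 10 genes described here act in the stomatal lineage and in guard cells of Arabidopsis thaliana: SPCH, MUTE, FAMA, TMM, BASL, EPF1, EPF2, SDD1, MYB60 and KAT1. They were taken by gene identifier, and all 10 were found among the 32678 genes listed for each library. Polyadenylated RNA came from whole seedlings kept for 5 days under continuous white light of 14.59 μmol per m2 and s, in 9 libraries. There were 3 libraries each of the wild type Col (accession Col-0) and of the mutants csu5-1 and csu5-3, both labelled as Col-0 by ecotype. The series title names a missense mutation in COP1 SUPPRESSOR 5, and neither the locus nor which allele carries that mutation is stated in the labels. From general knowledge the locus is taken to be WRKY32 (AT4G30935), a transcription factor gene, and this was not checked. WRKY32 ranged from 8.48 to 11.08 FPKM in Col, from 7.96 to 8.22 in csu5-1 and from 3.65 to 4.58 in csu5-3. The labels do not say whether the 3 libraries of a genotype came from separate cultures, so p-values measure the spread between these libraries.

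A stoma is a pore between a pair of guard cells in the plant epidermis. Its lineage starts when a protodermal cell divides asymmetrically under the basic helix-loop-helix (bHLH) transcription factor SPCH. MUTE then ends the asymmetric divisions, and FAMA limits the last division and sets guard cell fate, each with the partner proteins ICE1/SCRM and SCRM2. Secreted peptides of the EPF family, sensed by receptors of the ERECTA family with the co-receptor TMM, restrain the lineage through a kinase cascade. Light promotes stomatal development, and COP1, the ubiquitin ligase whose suppressor screen gave these mutants their name, represses it.

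Values are FPKM (fragments per kilobase of gene and per M counted reads) as deposited, given per library in the order of replicates 1, 2 and 3. Each fold change is a log2 value ± SE, fitted by limma to log2(FPKM + 0.5) after the libraries were scaled, with Benjamini-Hochberg adjusted p over all 19329 genes tested. The added 0.5 makes them understate changes of low genes. A gene was said to rise or fall at an adjusted p below 0.01 and a fold above 1.5, the thresholds of the series text. All 10 genes passed the filter on low values, and all 10 would also have passed it without the csu5-1 libraries. Depth, estimated from the steps between low values, was 37.5 to 43.2 M counted reads per library. The lowest members rested on few reads, an estimated 21 to 73 per library for MUTE and 23 to 228 for EPF2, against 647 to 1793 for TMM. Along the leading principal component of all genes tested, which held 66.9% of the variance, csu5-1 libraries scored 45.8 to 49.1 and the remaining 6 scored −26.1 to −22.

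In csu5-1 against Col, 6 of the 10 genes rose, 0 fell and 4 did not pass the test. SPCH, TMM, BASL, EPF2, SDD1 and KAT1 rose, while MUTE, FAMA, EPF1 and MYB60 did not pass. For comparison, 8.36% of all tested genes rose and 7.81% fell. By limma, 0 of the 10 were lower at an unadjusted p below 0.05, where 5471 of the 19329 genes tested were lower. In the deposited values every csu5-1 library was above every Col library for 6 of the 10 and below for 1, where 22% and 35.6% of all tested genes showed these orders. Those values are unscaled, and without scaling the median gene was at a log2 fold of −0.08. After scaling, the median log2 fold of the 10 was 0.93, against 0.00013 over all genes tested. In whole seedlings, more cells of the lineage and more RNA per cell cannot be told apart.

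**Figure D1:**
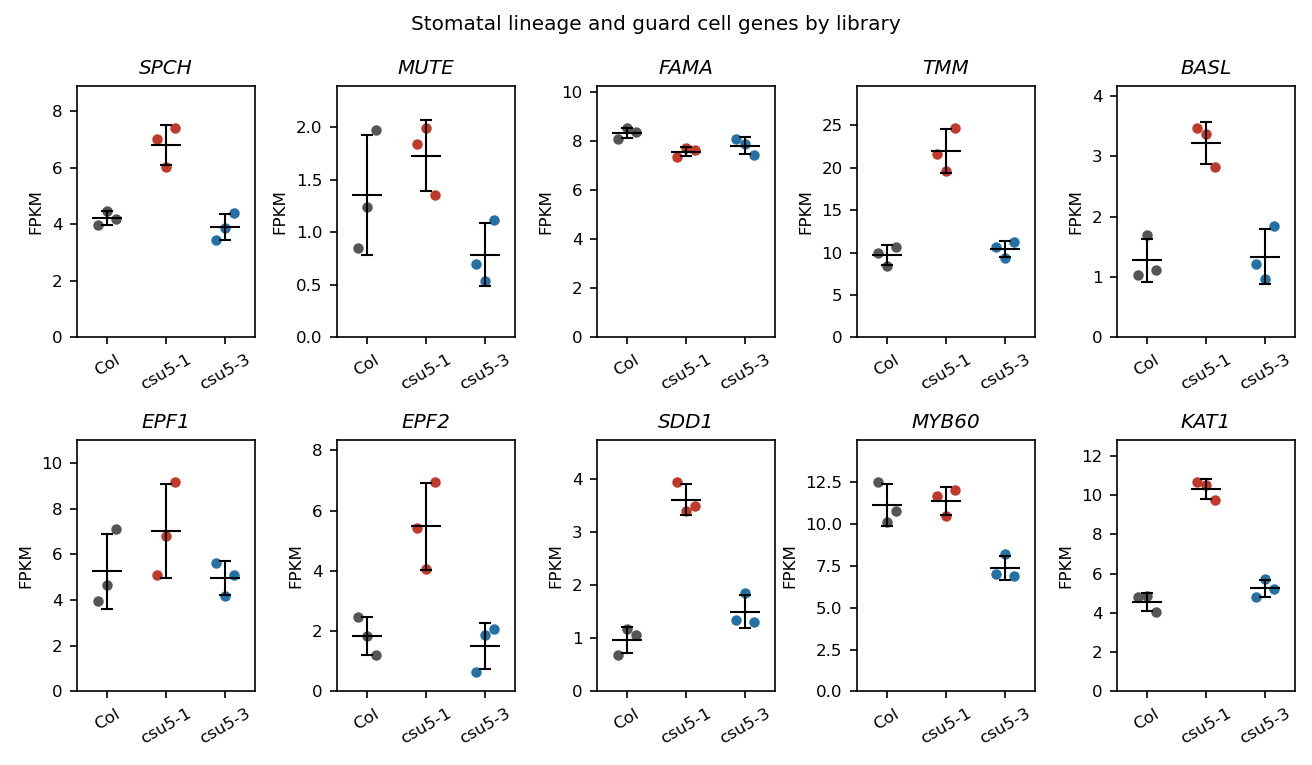
FPKM (vertical axes, each from 0) of each of the 10 genes in the 9 libraries, by genotype; points are libraries, long bars the mean and whiskers the SD (n = 3). The csu5-1 points of SPCH, TMM, BASL, EPF2, SDD1 and KAT1 all lie above the points of both other genotypes, and the csu5-3 points of MYB60 all lie below them.

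Of the 3 bHLH switch genes, SPCH passed the test, and MUTE and FAMA did not. Whether MUTE differed from SPCH in its change was not tested. SPCH (AT5G53210), which starts the lineage, stood at 3.98, 4.46 and 4.20 FPKM in Col and at 7.01, 6.03 and 7.40 in csu5-1. Every csu5-1 library was above every Col library. SPCH rose with a log2 fold of 0.71 ± 0.12 (adjusted p = 0.00032). MUTE (AT3G06120), which turns meristemoids into guard mother cells, stood at 0.85, 1.24 and 1.97 FPKM in Col and at 1.84, 1.99 and 1.35 in csu5-1. The groups overlapped, and the Col libraries alone covered most of the range of both. Its log2 fold was 0.36 ± 0.25 (adjusted p = 0.25), with a 95% interval of −0.18 to 0.90. FAMA (AT3G24140), which controls the division into guard cells, stood at 8.10, 8.54 and 8.36 FPKM in Col and at 7.35, 7.72 and 7.66 in csu5-1. It was the gene whose deposited csu5-1 values all lay below the Col values. Scaling, with factors of 0.958 to 0.968 in csu5-1 and 1.02 in Col, raised the csu5-1 values relative to Col, and the log2 fold of FAMA was −0.05 ± 0.08 (adjusted p = 0.62), with a 95% interval of −0.23 to 0.12.

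Ratios of FPKM values within a library do not depend on scaling, and 3 of them (FAMA to SPCH, EPF1 to EPF2 and MYB60 to KAT1) were compared, all chosen after the values were seen. The ratio of FAMA to SPCH was 2.04, 1.91 and 1.99 in Col and 1.05, 1.28 and 1.04 in csu5-1, with no overlap. In csu5-3 it was 2.35, 2.05 and 1.70, around the Col values. An exact two-sided permutation test of csu5-1 against Col gave p = 0.10, the smallest that 3 against 3 libraries allow (adjusted p = 0.20 over 6 such comparisons of 3 ratios).

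**Figure D2:**
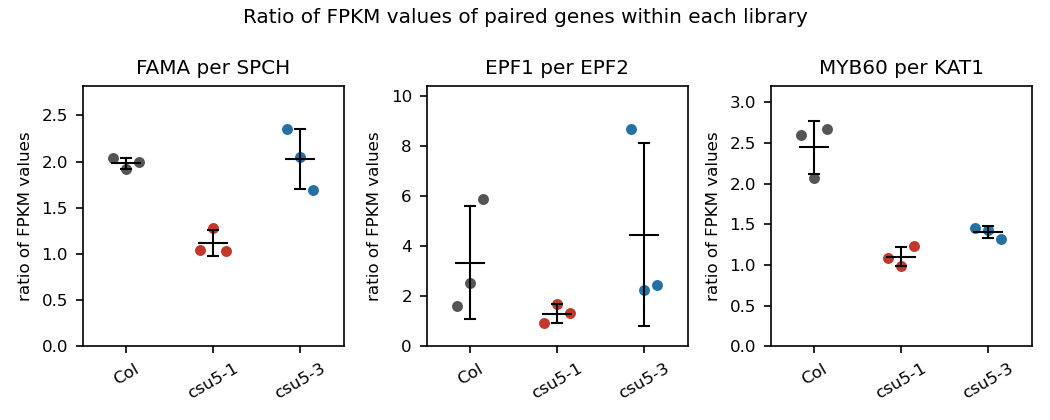
Ratio of FPKM values (vertical axes, each from 0) of FAMA to SPCH, EPF1 to EPF2 and MYB60 to KAT1 in each library, by genotype; points are libraries, long bars the mean and whiskers the SD (n = 3). FAMA per SPCH is lower in csu5-1 (1.12 ± 0.138) than in Col (1.98 ± 0.0608), and MYB60 per KAT1 is lower in both mutants than in every Col library.

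Among the signalling genes, the co-receptor and the early peptide rose. TMM (AT1G80080), a receptor-like protein without a kinase domain, stood at 10.00, 8.44 and 10.66 FPKM in Col and at 21.65, 19.56 and 24.67 in csu5-1. The lowest csu5-1 library was above the highest Col library, and TMM rose with a log2 fold of 1.22 ± 0.11 (adjusted p = 1.8e-06). EPF2 (AT1G34245), the peptide made by early lineage cells that limits entry into the lineage, stood at 2.47, 1.84 and 1.21 FPKM in Col and at 5.42, 4.06 and 6.95 in csu5-1. Its groups did not overlap, and it rose with a log2 fold of 1.43 ± 0.30 (adjusted p = 0.0015). EPF1 (AT2G20875), the peptide of later cells that orients spacing divisions, stood at 3.98, 4.68 and 7.12 FPKM in Col and at 5.10, 6.82 and 9.17 in csu5-1. These groups overlapped, and the log2 fold was 0.46 ± 0.22 (adjusted p = 0.092), with a 95% interval of −0.0037 to 0.93. The ratio of EPF1 to EPF2 was 1.61, 2.54 and 5.88 in Col and 0.941, 1.68 and 1.32 in csu5-1, and these overlapped too (exact permutation p = 0.20, adjusted p = 0.30). SDD1 (AT1G04110), a subtilisin-like protease whose loss raises stomatal density, stood at 0.69, 1.17 and 1.06 FPKM in Col and at 3.95, 3.40 and 3.50 in csu5-1. It had the largest fold of the 10, a log2 fold of 1.56 ± 0.18 (adjusted p = 1.4e-05), and its groups lay far apart.

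BASL (AT5G60880) encodes a protein held at 1 side of the cortex of dividing lineage cells, where it makes the daughters unequal. It stood at 1.03, 1.69 and 1.11 FPKM in Col and at 3.47, 3.37 and 2.83 in csu5-1, without overlap. BASL rose with a log2 fold of 1.15 ± 0.20 (adjusted p = 0.00051).

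Of the 2 genes of mature guard cells, KAT1 passed the test in csu5-1 against Col and MYB60 did not. KAT1 (AT5G46240), an inward potassium channel that serves stomatal opening, stood at 4.80, 4.87 and 4.03 FPKM in Col and at 10.67, 10.50 and 9.75 in csu5-1. The libraries of each genotype lay close together, and KAT1 rose with a log2 fold of 1.17 ± 0.10 (adjusted p = 1.5e-06). MYB60 (AT1G08810), a guard cell transcription factor that promotes opening in light, stood at 12.48, 10.08 and 10.74 FPKM in Col and at 11.64, 10.43 and 11.99 in csu5-1. The groups overlapped, with a log2 fold of 0.11 ± 0.10 (adjusted p = 0.37) and a 95% interval of −0.11 to 0.33. MYB60 per KAT1 was 2.60, 2.07 and 2.67 in Col and 1.09, 0.993 and 1.23 in csu5-1 (exact permutation p = 0.10, adjusted p = 0.20).

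**Figure D3:**
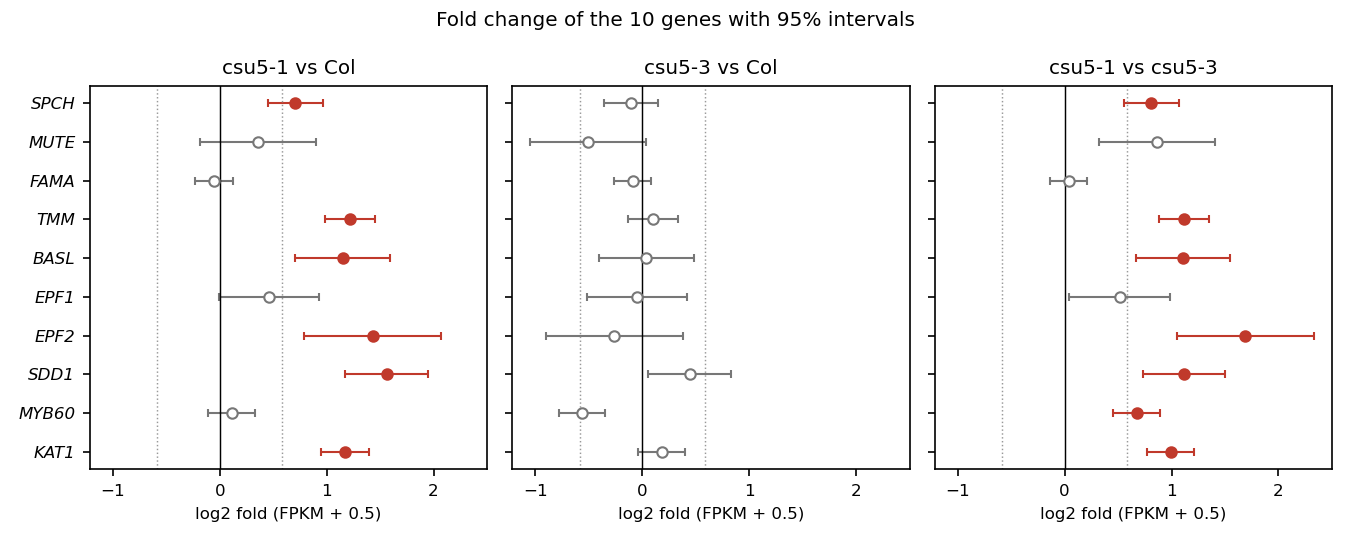
Log2 fold on the log2(FPKM + 0.5) scale (horizontal axis) of the 10 genes in each of the 3 comparisons; points are limma estimates, bars 95% intervals, filled points genes that passed the test, and dotted lines the 1.5-fold threshold. In csu5-1 against Col 6 points are filled, in csu5-3 against Col 0, and in csu5-1 against csu5-3 7.

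In csu5-3 against Col, 0 of the 10 genes passed the test in limma, where 0.248% of all tested genes did. At an unadjusted p below 0.05, 2 of the 10 differed, SDD1 upward and MYB60 downward, a count near the background of 4252 among the 19329 genes tested. The median log2 fold of the 10 was −0.07, against −0.0015 over all genes. This comparison and the one above share the Col libraries.

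MYB60 came nearest to the thresholds in csu5-3. Its FPKM values there were 7.02, 8.19 and 6.85, all below the lowest Col library, an order that 13.2% of all tested genes showed. The log2 fold was −0.56 ± 0.10 (adjusted p = 0.012), with a 95% interval of −0.78 to −0.34. SDD1 stood at 1.34, 1.86 and 1.31 FPKM in csu5-3, above every Col library, as did 14% of all tested genes. Its log2 fold was 0.44 ± 0.18 (adjusted p = 0.17). MYB60 per KAT1 was 1.46, 1.43 and 1.32 in csu5-3, below the Col values without overlap (exact permutation p = 0.10, adjusted p = 0.20).

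For the other 8 genes the csu5-3 libraries overlapped with Col. SPCH stood at 3.45, 3.86 and 4.39 FPKM, with a log2 fold of −0.10 ± 0.12 and a 95% interval of −0.36 to 0.15. TMM stood at 10.67, 9.40 and 11.19 FPKM, with a log2 fold of 0.10 ± 0.11 and an interval of −0.14 to 0.34. KAT1 stood at 4.82, 5.72 and 5.20 FPKM, with a log2 fold of 0.18 ± 0.10 and an interval of −0.04 to 0.40. These genes lay near their Col levels. FAMA, at 8.10, 7.90 and 7.45 FPKM, had a log2 fold of −0.09 ± 0.08 and an interval of −0.26 to 0.09. The intervals of the remaining 4 were wider: −1.04 to 0.03 for MUTE, −0.40 to 0.48 for BASL, −0.52 to 0.42 for EPF1 and −0.90 to 0.38 for EPF2. MUTE stood at 0.70, 0.54 and 1.12 FPKM in csu5-3, and EPF2 at 0.65, 1.86 and 2.06. BASL stood at 1.21, 0.97 and 1.84 FPKM and EPF1 at 5.63, 4.18 and 5.08.

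The direct comparison of the 2 alleles asks whether csu5-1 and csu5-3 differed. In csu5-1, 7 of the 10 genes were higher than in csu5-3 and 0 lower by limma. Over all tested genes 8.15% were higher and 6.52% lower. At an unadjusted p below 0.05, 0 of the 10 were lower, against 5143 of the 19329 genes tested. The 7 were the 6 that rose against Col and MYB60. For 8 genes every csu5-1 library was above every csu5-3 library and for 0 below, orders that 20.7% and 35.5% of all tested genes showed. These orders too are of unscaled values, in which the median gene was at a log2 fold of −0.08. The log2 folds were 0.81 ± 0.12 for SPCH (adjusted p = 0.00012), 1.12 ± 0.11 for TMM (adjusted p = 4.1e-06) and 1.11 ± 0.20 for BASL (adjusted p = 0.00073). They were 1.69 ± 0.30 for EPF2 (adjusted p = 0.0005), 1.12 ± 0.18 for SDD1 (adjusted p = 0.00025) and 0.99 ± 0.10 for KAT1 (adjusted p = 6.5e-06). MYB60 differed with 0.68 ± 0.10 (adjusted p = 0.00015), and its csu5-3 libraries were the low ones. MUTE was the eighth, and its log2 fold of 0.86 ± 0.25 had an adjusted p of 0.013. MUTE passed without Col replicate 1, Col replicate 3 or csu5-3 replicate 3 (adjusted p = 0.0088, 0.0079 and 0.0087) and with only the 2 mutants in the fit (0.0089). EPF1 had a log2 fold of 0.51 ± 0.22 (adjusted p = 0.07) and FAMA of 0.04 ± 0.08 (adjusted p = 0.74), the latter −0.042 without scaling.

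FPKM is per gene length, so levels can be set beside each other. In Col the order from high to low was MYB60 (11.1 ± 1.24 FPKM, SD, n = 3), TMM (9.70 ± 1.14), FAMA (8.33 ± 0.221), EPF1 (5.26 ± 1.65), KAT1 (4.57 ± 0.466), SPCH (4.21 ± 0.240), EPF2 (1.84 ± 0.630), MUTE (1.35 ± 0.569), BASL (1.28 ± 0.360) and SDD1 (0.973 ± 0.251). Neighbours overlapped in their libraries everywhere but between FAMA and EPF1 and between SPCH and EPF2. In csu5-1 TMM led at 22.0 ± 2.57 FPKM, clear of MYB60 at 11.4 ± 0.819, and KAT1 followed at 10.3 ± 0.490. MUTE was last there, at 1.73 ± 0.335 FPKM, below every library of BASL at 3.22 ± 0.344. In csu5-3 the order was close to that of Col, with TMM at 10.4 ± 0.921 FPKM ahead of FAMA at 7.82 ± 0.333 and MYB60 at 7.35 ± 0.730. The summed FPKM of the 10 genes ranged from 47.0 to 50.5 in Col, from 73.9 to 85.3 in csu5-1 and from 43.6 to 46.5 in csu5-3.

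Of 17 other listed regulators of the lineage, 16 were tested in csu5-1 against Col, and 2 rose, 0 fell and 14 did not pass (1 was lower at an unadjusted p below 0.05), with a median log2 fold of 0.22. The 2 rises stand beside the 8.36% of all tested genes that rose, and the 1 lower gene beside 5471 of the 19329 genes tested. The difference between this list and the 10 genes was not tested. SCRM2 (AT1G12860), a bHLH partner of SPCH, MUTE and FAMA, rose from 22.2 ± 0.570 FPKM in Col to 34.7 ± 0.389 in csu5-1 (log2 fold 0.71 ± 0.06, adjusted p = 1.1e-06). Its close relative ICE1/SCRM (AT3G26744) was at 31.9 ± 1.97 and 35.4 ± 0.827 FPKM, a log2 difference of 0.23 ± 0.06 that was too small to pass (adjusted p = 0.0048). POLAR (AT4G31805), a cortical partner of BASL in cell polarity, rose from 3.84 ± 0.280 to 6.32 ± 0.790 FPKM (0.72 ± 0.12, adjusted p = 0.00029). It overlaps the opposite-strand gene AT4G31810, and use of strand in counting is not stated in the labels, which makes its value uncertain. None of the 16 passed in csu5-3 against Col in limma, where 0.248% of all tested genes did. At an unadjusted p below 0.05, 2 differed, against 4252 of the 19329 genes tested. POLAR was at −0.33 ± 0.12 (adjusted p = 0.13) and the cell cycle kinase gene CDKB1;1, which also overlaps an opposite-strand gene, at 0.21 ± 0.09 (adjusted p = 0.21). SCRM2 and POLAR were higher in csu5-1 than in csu5-3, with log2 folds of 0.71 ± 0.06 and 1.05 ± 0.12. They were the 2 of the 16 that passed there, with 0 lower, where 8.15% of all tested genes were higher and 6.52% lower.

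Of 15 listed peptides, receptors and kinases of the pathway, 14 were tested in csu5-1 against Col, and 2 rose, 0 fell and 12 did not pass. Over all tested genes 8.36% rose and 7.81% fell. The limma fit put 0 of the 14 lower at an unadjusted p below 0.05, where 5471 of the 19329 genes tested were lower. The median log2 fold of the 14 was 0.17. EPFL6 (AT2G30370), also called CHALLAH, a peptide that acts on ERECTA receptors in internal tissues of the stem, rose from 1.65 ± 0.252 to 5.32 ± 1.33 FPKM (1.49 ± 0.18, adjusted p = 2.6e-05). ERL1 (AT5G62230), the receptor that senses EPF1, rose from 1.51 ± 0.214 to 3.38 ± 0.597 FPKM (1.01 ± 0.17, adjusted p = 0.00032). ERL1 overlaps the opposite-strand gene AT5G62240 and is uncertain for that reason. Its relatives ER (AT2G26330) and ERL2 (AT5G07180) had log2 folds of 0.57 ± 0.05 and 0.57 ± 0.10, just under the fold threshold, with adjusted p of 1.5e-06 and 0.00053. EPFL9 (AT4G12970), or STOMAGEN, the mesophyll peptide that competes with EPF2 and promotes stomata, was at 32.7 ± 4.18 FPKM in Col, 27.7 ± 2.15 in csu5-1 and 26.4 ± 3.45 in csu5-3. Its log2 folds against Col were −0.15 ± 0.10 (adjusted p = 0.24) and −0.30 ± 0.10 (adjusted p = 0.11). Of these 14 genes, 0 passed in csu5-3 against Col by limma, where 0.248% of all tested genes did. At an unadjusted p below 0.05, 1 differed, against 4252 of the 19329 genes tested. Between the alleles, 3 of the 14 were higher in csu5-1 and 0 lower, where 8.15% and 6.52% of all tested genes were. The 3 were EPFL6, ERL1 and EPFL5 (AT3G22820), a relative of EPFL6, with log2 folds of 1.79 ± 0.18, 0.93 ± 0.17 and 0.75 ± 0.16. EPFL5 lost its call without csu5-1 replicate 3 (0.62, adjusted p = 0.01).

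**Figure D4:**
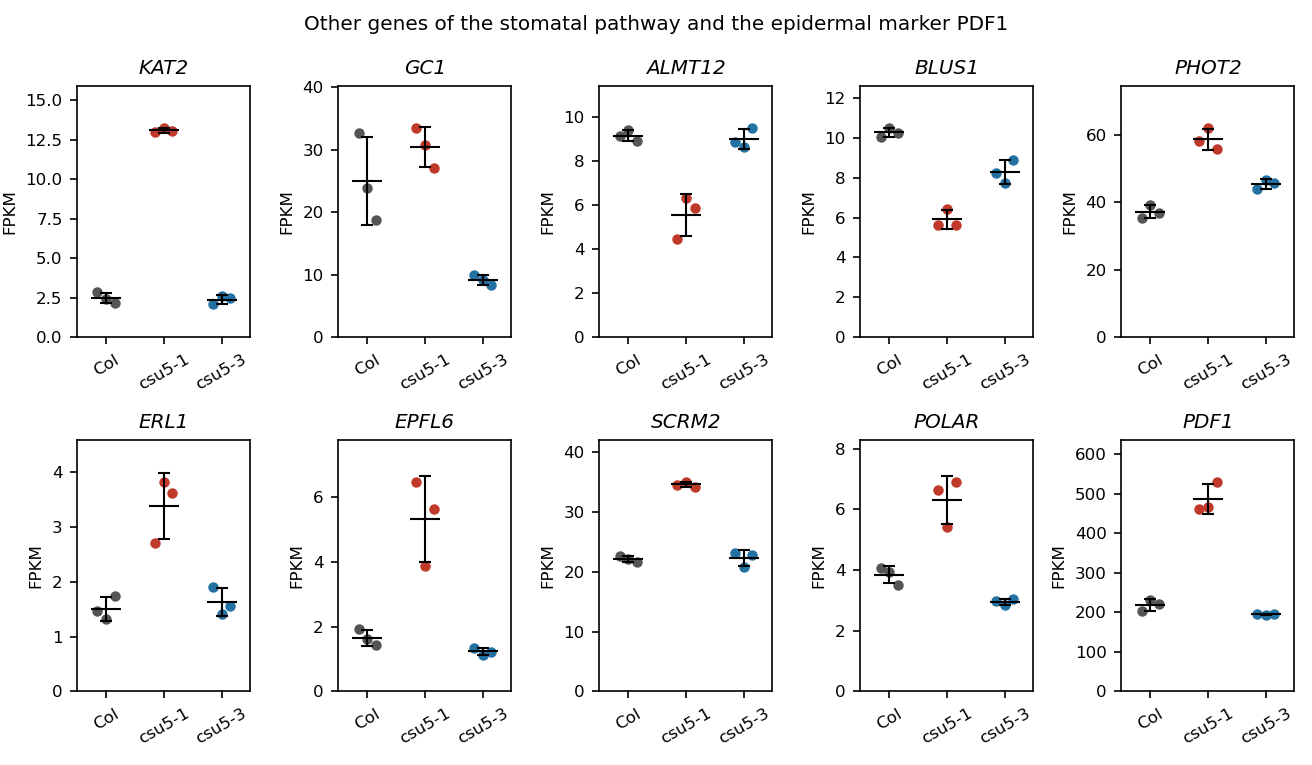
FPKM (vertical axes, each from 0) of 9 other genes of the stomatal pathway and of the epidermal marker PDF1 in the 9 libraries, by genotype; points are libraries, long bars the mean and whiskers the SD (n = 3). KAT2, PHOT2, ERL1, EPFL6, SCRM2, POLAR and PDF1 are higher in all csu5-1 libraries than in all others, ALMT12 and BLUS1 are lower in all csu5-1 libraries, and GC1 is lowest in csu5-3.

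Genes of guard cell function moved both ways. Of 13 listed, 12 were tested in csu5-1 against Col, and 2 rose, 2 fell and 8 did not pass, with a median log2 fold of 0.14. Over all tested genes 8.36% rose and 7.81% fell. KAT2 (AT4G18290), the channel closest to KAT1, stood at 2.86, 2.42 and 2.20 FPKM in Col, at 13.00, 13.25 and 13.03 in csu5-1, and at 2.10, 2.61 and 2.47 in csu5-3. It rose in csu5-1 with a log2 fold of 2.26 ± 0.12 (adjusted p = 1.5e-08), more than any of the 10 genes. The blue light receptor gene PHOT2 (AT5G58140), which drives stomatal opening and other responses, rose with 0.73 ± 0.06 (adjusted p = 6.2e-07). BLUS1 (AT4G14480), a guard cell kinase that phototropins activate, fell from 10.3 ± 0.215 to 5.90 ± 0.465 FPKM (−0.67 ± 0.09, adjusted p = 4.9e-05). PHOT2 and BLUS1 each overlap 1 other gene and are uncertain. ALMT12 (AT4G17970), an anion channel of stomatal closure, fell from 9.15 ± 0.250 to 5.56 ± 0.962 FPKM (−0.61 ± 0.11, adjusted p = 0.00067), a call lost without csu5-1 replicate 1 (−0.47) and at a pseudocount of 1 (−0.57).

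Of the same 12 genes, 1 fell in csu5-3 against Col and 0 rose, where 0.129% of all tested genes fell and 0.119% rose. In limma 3 were higher and 2 lower at an unadjusted p below 0.05, where 1898 and 2354 of the 19329 genes tested were. GC1 (AT1G22690), a gene whose promoter is used to mark guard cells, stood at 32.61, 23.87 and 18.71 FPKM in Col, at 33.48, 30.80 and 27.15 in csu5-1, and at 9.98, 9.21 and 8.38 in csu5-3. All csu5-3 libraries were low, and the Col libraries were spread widely. GC1 fell with a log2 fold of −1.37 ± 0.15 (adjusted p = 0.0013), a call lost when low genes were left in (adjusted p = 0.016). It also overlaps an opposite-strand gene, AT1G22700, and is uncertain.

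Of 8 listed light regulators that act on stomatal development, 1 rose and 1 fell in csu5-1 against Col, with a median log2 fold of 0.23. Over all tested genes 8.36% rose and 7.81% fell. PIF4 (AT2G43010), a bHLH growth regulator that represses SPCH in warmth, rose from 16.9 ± 1.35 to 56.0 ± 4.25 FPKM (1.78 ± 0.12, adjusted p = 1.5e-07). CGA1 (AT4G26150), a GATA factor that promotes stomata in the hypocotyl, fell from 13.2 ± 1.28 to 4.89 ± 1.38 FPKM (−1.30 ± 0.18, adjusted p = 6.9e-05). Another 5 of the 8 had an adjusted p below 0.01 without reaching the fold threshold. So 7 of the 8 did at any fold, where 36% of all tested genes did. Limma put 4 of the 8 higher and 3 lower at an unadjusted p below 0.05, where 5332 and 5471 of the 19329 genes tested were. HY5 (AT5G11260), a bZIP factor that promotes light responses and a target of COP1, was among the 5. It was at 26.01, 20.76 and 19.96 FPKM in Col and at 14.23, 13.79 and 14.14 in csu5-1. Its csu5-1 libraries all lay below Col, with a log2 fold of −0.55 ± 0.09 (adjusted p = 0.00027). COP1 (AT2G32950) was at 20.4 ± 0.172, 20.7 ± 0.442 and 20.9 ± 1.39 FPKM in Col, csu5-1 and csu5-3. Of these 8 genes, 0 passed in csu5-3 against Col by limma, where 0.248% of all tested genes did. In that comparison 3 had an unadjusted p below 0.05, against 4252 of the 19329 genes tested. The lowest adjusted p, 0.028, was that of the blue light receptor gene CRY2 (0.21 ± 0.05).

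Some markers of the whole epidermis and of dividing cells were also higher in csu5-1, and their part in the result was not tested. These counts stand beside the 8.36% of all tested genes that rose and the 7.81% that fell. At an unadjusted p below 0.05, 5471 of the 19329 genes tested were lower. Of 6 epidermal markers 2 rose in csu5-1, 0 fell and 4 did not pass. By limma 0 of them were lower at an unadjusted p below 0.05, and their median log2 fold was 0.34. The protodermal gene PDF1 (AT2G42840) rose from 219 ± 14.6 to 486 ± 37.9 FPKM (1.23 ± 0.07, adjusted p = 2e-08). ATML1 (AT4G21750), the regulator of epidermal identity, rose with 0.62 ± 0.05 (adjusted p = 6.5e-07), a call lost without scaling (0.53). The summed FPKM of the 6 was 682 to 720 in Col, 1002 to 1074 in csu5-1 and 724 to 728 in csu5-3. That sum weighs high genes most, PDF1 among them. Of 10 markers of dividing cells, 3 rose, 0 fell and 7 did not pass in csu5-1. By limma 0 of these were lower at an unadjusted p below 0.05, and the median log2 fold was 0.32. CDC20.1, an activator of mitotic exit, rose with 0.81 ± 0.08, the cyclin gene CYCA1;1 with 0.72 ± 0.12 and the cytokinesis kinesin gene HIK with 0.63 ± 0.10. HIK was not called without scaling (0.56) or at a pseudocount of 1 (0.58). Their sum was 95.2 to 107 FPKM in Col, 128 to 138 in csu5-1 and 112 to 122 in csu5-3. No listed gene of either list was at 0 in a library. By limma 0 genes of either list passed in csu5-3 against Col, where 0.248% of all tested genes did. At an unadjusted p below 0.05, 3 and 4 differed, against 4252 of the 19329 genes tested.

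**Figure D5:**
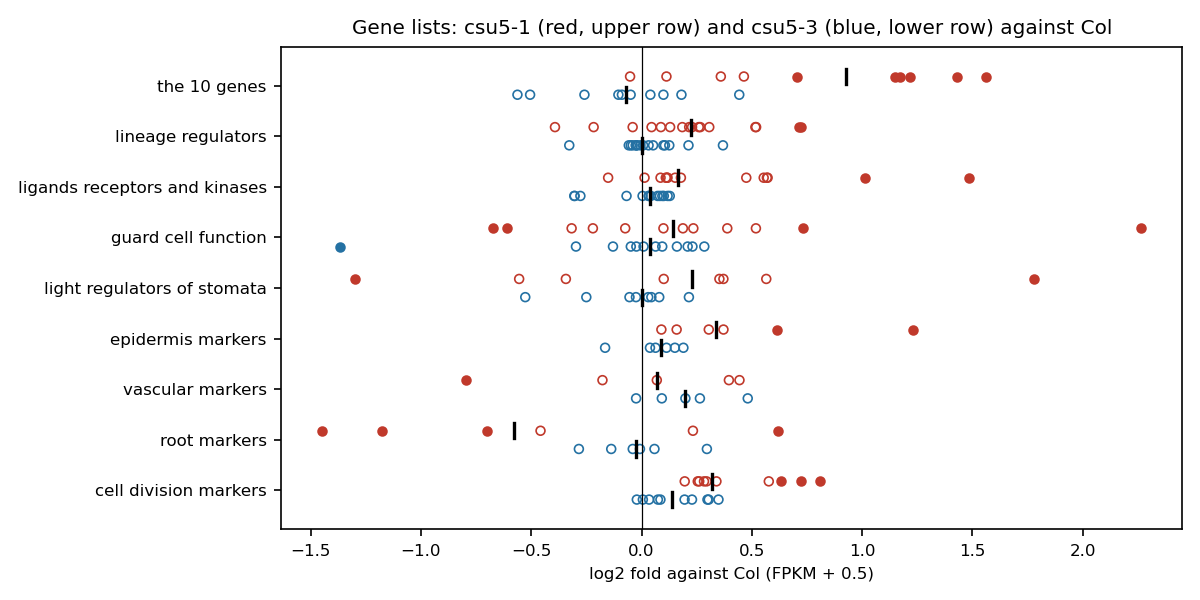
Log2 fold against Col on the log2(FPKM + 0.5) scale (horizontal axis) of the genes of 9 lists, in csu5-1 (red, upper row of each list) and csu5-3 (blue, lower row); each circle is a gene, filled where it passed the test, and black bars are list medians. The median of the 10 genes is 0.93 in csu5-1 and −0.07 in csu5-3, and the root markers have the lowest median in csu5-1.

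The genes outside these lists whose scaled log2 values followed SPCH most closely over the 9 libraries were AT1G80440, a kelch repeat protein gene (Pearson r = 0.987), AT1G14890, a pectin methylesterase inhibitor family gene (0.986), and 4CL3 (AT1G65060), a 4-coumarate CoA ligase gene (0.985). For TMM they were PSBO2 (AT3G50820), a photosystem II subunit gene (0.994), ARR11 (AT1G67710), a cytokinin response regulator gene (0.992), and ASG1 (AT2G24100, 0.99). For KAT1 they were WNK4 (AT5G58350), a kinase gene (0.996), ECS1 (AT1G31580, 0.995) and AT5MAT (AT3G29590), an acyltransferase gene of anthocyanins (0.995). The 9 libraries form 3 genotypes, so these correlations are a description of 3 shared genotypes, not of 9 independent points. ECS1 was at a mean of 29.4 FPKM in Col, 236 in csu5-1 and 41.2 in csu5-3.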

How the data were processed

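The submitters' processing notes name Trimmomatic for trimming, HISAT2 2.05 for alignment, TAIR10 as the build and HTSeq for counting. The deposited values were read as FPKM, from the values themselves: they have 2 decimals, and library sums lay between 691388 and 718744. The authors' route from counts to FPKM was not given in the sources used here. RPKM would look the same. Depth came from the whole-read steps of low values of short single-exon genes, of which 83.6% to 89.4% lay no more than 0.1 read from a whole number. The median over other trial depths was 13.6% to 16.0%. Names, exon lengths and overlaps came from RefSeq TAIR10.1, which holds all 103 listed genes. None of the 10 genes overlaps another annotated gene there. That assembly is not the files' build, so no coordinates or sequences are given.

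Limma 3.58.1 in R 4.3.3 was run with a mean-variance trend on log2(FPKM + 0.5). Scaling used the trimmed mean (0.3 at each end) of log ratios against the average library (factors 0.958 to 1.03). The filter asked for 1 FPKM or more in 3 or more libraries, with 1 mean per genotype over all 9 libraries. The fit was tested on simulated data. Ratios were compared with exact permutation tests (scipy 1.17.1). The 10 genes, the lists and the tests were chosen with earlier results of these data known. All 10 genes were named. Of the other lists, the called genes with up to 4 smallest p-values in a comparison, or up to 2 where none was called, could be named. ICE1/SCRM, SCRM2, EPFL9, ER, ERL1, ERL2, COP1, HY5, PIF4 and WRKY32 could always be named. The alternatives were other pseudocounts, filters, scalings and thresholds, fits of 2 groups, a replicate block and leaving out each library.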

Additional observations from a re-analysis of the deposited data

How the results depend on the processing

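The 6 rises among the 10 genes in csu5-1 against Col kept their direction and call under every alternative run other than the 5 FPKM filter. With a filter of 5 FPKM, 6 of the 10 genes were tested, and 3 passed in csu5-1 against Col and 4 in csu5-1 against csu5-3. SPCH and KAT1 passed that filter only with the csu5-1 libraries, where they are high, so their calls under it support nothing. At an adjusted p below 0.05 with no fold minimum, 1 of the 10 (MYB60) passed in csu5-3 against Col, and in all 9624 genes passed in csu5-1 against Col in place of 3124, 997 in csu5-3 against Col in place of 48, and 8808 between the alleles in place of 2837. The 48 became 9 with no filter on low values (the cause was not tested) and ranged from 11 (without Col replicate 1) to 51 when 1 library was left out. Without Col replicate 3 it was 27, and 29 or 20 when csu5-3 replicate 1 or 2 was left out. With the replicate number as a block it was 77. Same-numbered libraries correlated at 0.017 to 0.151 in their deviations, not above 0.1 in every pair, so the numbers were not taken to pair libraries. Libraries of different numbers were not compared, so a batch shared by number was not tested. The block changed no call among the 10 genes, and the limma adjusted p of EPF1 in csu5-1 against Col went from 0.092 to 0.038. Among the log2 folds of the 10 genes under the alternatives, 515 kept their direction and side, 6 newly passed and 7 turned sign, none of them called. In csu5-3 against Col these were BASL (−0.14 to 0.20 over the left-out libraries), EPF1 (−0.22 to 0.17) and EPF2 (−0.47 to 0.10). Between the alleles FAMA turned to −0.042 without scaling, which put the median gene at −0.08. For called genes outside the 10, 707 values kept the call and 26 lost it. Not all of these values, inside or outside the 10, were free to change. The looser threshold cannot lose a call, and it and the block left each log2 fold as it was. Leaving out a library of the genotype not compared moved the log2 fold little. MUTE, EPF2 and BASL rest on the fewest estimated reads.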

Other observations

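Markers of other cell types in the seedlings were measured in the same libraries. Their counts in csu5-1 against Col stand beside the 8.36% of all tested genes that rose and the 7.81% that fell. At an unadjusted p below 0.05, 5471 of the 19329 genes tested were lower. TGG1 (AT5G26000) and TGG2 (AT5G25980), the myrosinases of idioblast cells whose fate also depends on FAMA, went apart in csu5-1. TGG2 rose with a log2 fold of 1.09 ± 0.10 (adjusted p = 2.4e-06), while TGG1, which guard cells also express, had −0.10 ± 0.06 (adjusted p = 0.17). Of 5 vascular markers 0 rose, 1 fell and 4 did not pass in csu5-1, with a median log2 fold of 0.07. Limma put 2 of the 5 higher and 2 lower at an unadjusted p below 0.05, where 5332 and 5471 of the 19329 genes tested were. The phloem sucrose carrier gene SUC2 (AT1G22710) fell from 116 ± 8.22 to 63.2 ± 4.40 FPKM (−0.79 ± 0.07, adjusted p = 1e-06). Of 9 listed root markers 6 were tested, and 1 rose and 3 fell. The root hair genes PRP3, EXPA18 and EXPA7 fell with −1.45 ± 0.11, −1.18 ± 0.15 and −0.70 ± 0.15 (the last 2 overlap opposite-strand genes), and SHR, a regulator of root patterning, rose with 0.62 ± 0.07. EXPA7 lost its call without Col replicate 1 or csu5-1 replicate 2 (−0.55 each), and SHR without Col replicate 3 (0.58) or without scaling (0.54). Neither of 2 mesophyll markers passed in csu5-1, with RBCS1A at −0.40 ± 0.08 and CA1, which overlaps another gene, at 0.21 ± 0.07. Of 6 listed trichome markers 2 were tested and 0 passed in limma (1 lower at an unadjusted p below 0.05), with TTG1 at −0.18 ± 0.06 and GL2, which overlaps other genes, at 0.25 ± 0.14. In csu5-3 against Col no gene of these 5 lists passed both thresholds, where 0.248% of all tested genes did. CA1 had 0.53 ± 0.07 there (adjusted p = 0.0033).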
